A study of Saccharomyces cerevisiae with 24 samples.

Results

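The genes for making pyrimidine nucleotides and for taking up uracil were followed in budding yeast through exposure to methyl methanesulfonate (MMS), an agent that alkylates DNA and RNA. The members were chosen by name from the pathway, not by their values. They are the 10 genes URA1, URA2, URA4, URA5, URA6, URA7, URA8, URA10, FUR1 and FUR4, of 5912 genes listed, and all 10 passed the filter on low counts. Poly-A RNA was sequenced from haploid MATa BY4741 cells grown in YPD, a rich medium. The 4 strains were wild type, gcn2Δ (gcn2Δ::KAN), gcn4Δ (gcn4Δ::KAN) and mbf1Δ (mbf1Δ::NAT). Each was left untreated or given 0.1% MMS for 1 h, with 3 biological replicates in each of the 8 groups. Gcn2 is the kinase that phosphorylates translation factor eIF2 when amino acids run short, Gcn4 is a transcription activator that is translated more under that signal, and Mbf1 works with Gcn4 as a coactivator. The comparison asks how the response to MMS depends on these genes.

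In the de novo pathway, Ura2 makes carbamoyl aspartate, Ura4 closes the ring to dihydroorotate, Ura1 oxidises it to orotate, and Ura5 or its minor isozyme Ura10 joins orotate to phosphoribosyl pyrophosphate (PRPP). Ura3 then gives UMP, Ura6 phosphorylates UMP, and the isozymes Ura7 and Ura8 turn UTP into CTP. Salvage enters at UMP: the permease Fur4 imports uracil and Fur1 joins it to PRPP. BY4741 carries a deletion of URA3, so the cells depend on uracil or uridine from the medium, and URA3 had 0 counts in all 24 libraries. All groups, the wild type included, share this blocked step, which limits them as a model of cells that make their own UMP.

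Total counts per library ranged from 13518147 to 28366559. The deleted genes were low in their own strains: in untreated cells GCN2 had a mean of 0.576 CPM (counts relative to library size, scaled by TMM) in gcn2Δ, GCN4 28 in gcn4Δ and MBF1 2.59 in mbf1Δ, against 70, 971 and 281 in wild type. Genes of the ribosomal RNA locus took from 6.81% to 17.7% of counts in wild type, gcn2Δ and mbf1Δ libraries. In gcn4Δ libraries they took from 0.344% to 1.5%. Untreated wild type replicate 3 (10.6%) lay below the other 2 (15.6% and 16.9%). Replicate 1 of mbf1Δ was also low, both treated (8.86% against 17.3% and 17.7%) and untreated (8.17% against 12.8% and 13.6%). Of all replicate pairs, those with treated mbf1Δ replicate 1 differed most in counts (chi-square per degree of freedom 185 and 194). All values are relative to the other mRNAs of a library, so less RNA per cell and fewer cells with that RNA cannot be told apart. Changes are log2 fold changes from edgeR's quasi-likelihood test with its standard error (SE). A gene is called changed when its p, adjusted over all 5824 tested genes, is under 0.05.

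In untreated wild type cells the pathway spanned a wide range of levels per length, given as TPM, a relative abundance corrected for length (mean ± SD, n = 3). URA5 stood at 532 ± 53.7 TPM and URA1 at 480 ± 94.7, and the libraries of these neighbours in the order overlapped. FUR1 followed at 302 ± 31.9 TPM, URA7 at 206 ± 19.6 and URA2 at 157 ± 14.4, each separated from the one above it in all libraries. URA2, URA4 (129 ± 21.5 TPM) and URA6 (100 ± 19.1 TPM) overlapped with their neighbours. URA8 at 40.0 ± 0.582 TPM, FUR4 at 22.3 ± 1.53 TPM and URA10 at 6.26 TPM closed the order without overlap. The minor member of each isozyme pair, URA8 and URA10, thus lay below the major member, URA7 and URA5.

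After MMS the order in wild type was rearranged. URA5 was still highest, at 148 TPM, but URA8 came next at 83.3 TPM (SD 3) and URA10 (47.4 TPM) lay level with URA2 (46.7 ± 4.81 TPM), their libraries overlapping. FUR1 (32.1 TPM), URA1 (19.9 ± 0.897 TPM), FUR4 (8.41 ± 0.309 TPM) and URA7 (5.73 TPM) followed in that order without overlap. URA4 (62.7 ± 3.21 TPM) and URA6 (60.7 ± 4.52 TPM), whose libraries overlapped, stood between URA8 and URA10. URA1, URA7 and FUR1 had thus moved down the order, and URA4, URA6, URA8 and URA10 up.

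**Figure D1:**
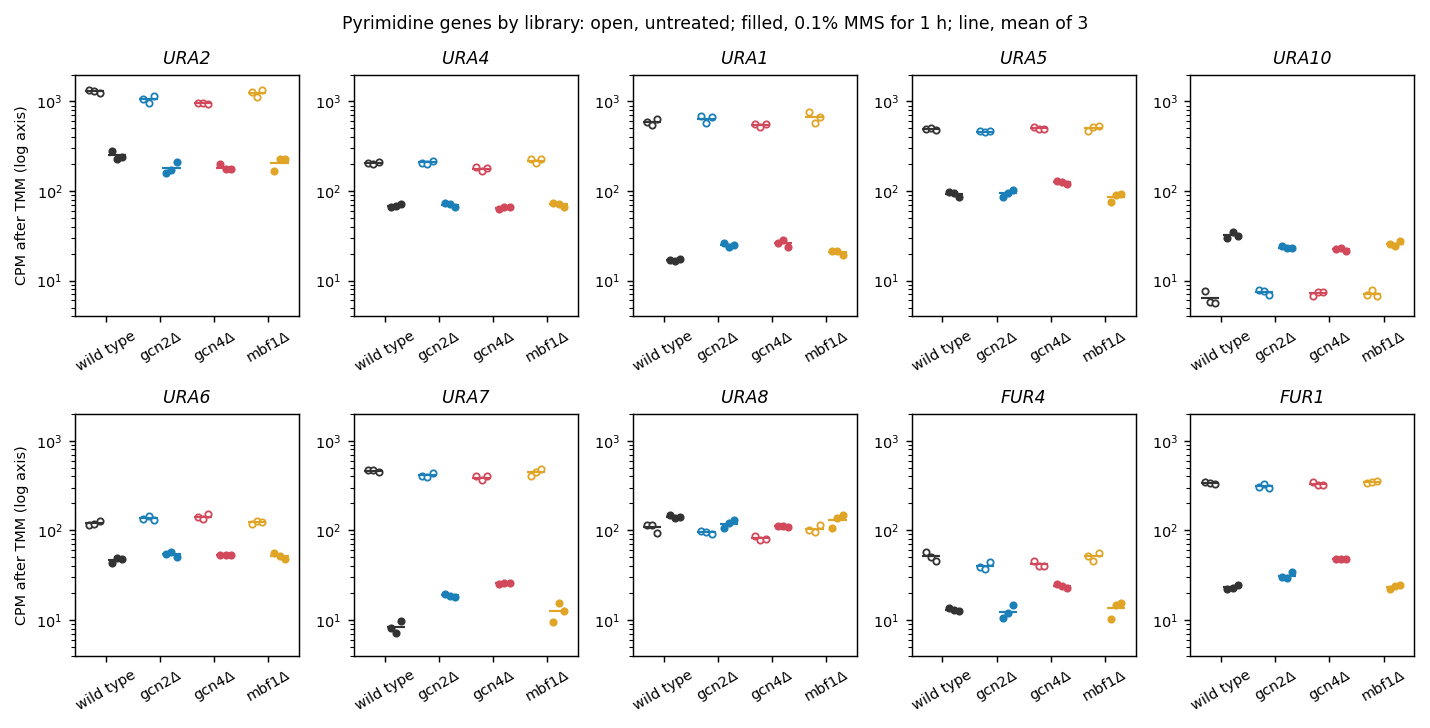
Level of each of the 10 genes in CPM (log axis) in the 24 libraries, by strain and treatment, with a point per library and a line at the group mean. URA7 goes from 476, 469 and 451 CPM to between 7.18 and 9.78 CPM in wild type, while URA10 moves up from under 8 CPM.

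In wild type, MMS lowered 8 of the 10 genes and raised URA8 and URA10. All 10 were called, where 83.1% of all genes were (42% higher and 41.2% lower), so being called is no mark of these genes. The median log2 change of the 10 was -2.19, against 0.02 over all tested genes.

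The first steps of the pathway fell by unequal amounts. URA2 (YJL130C, chromosome X, 165723 to 172367, reverse strand), the carbamoyl phosphate synthetase and aspartate transcarbamylase that UTP inhibits, had 1338, 1326 and 1257 CPM in untreated wild type and 277, 229 and 243 CPM after MMS. It fell 5.24-fold (log2 change -2.39, SE 0.12, edgeR adjusted p = 1.43e-14). URA4 (YLR420W, chromosome XII, 963785 to 964879, forward strand), the dihydroorotase, went from 204, 198 and 212 CPM to 66.5, 68.3 and 71.2 CPM. Its fall of 2.98-fold (-1.58, SE 0.06) was smaller, though all treated libraries lay below all untreated ones for both genes. URA1 (YKL216W, chromosome XI, 25215 to 26159, forward strand), the dihydroorotate dehydrogenase, had 590, 549 and 638 CPM before and 17, 16.7 and 17.4 CPM after, a fall of 34.8-fold (-5.12, SE 0.11, edgeR adjusted p = 2.92e-21).

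URA1 and URA4 are known targets of Ppr1, an activator that responds to the intermediates dihydroorotate and orotate. The 250 bases before each start codon are shown because the genes carry the spacing that Ppr1 is known to bind, CGG and CCG 6 bases apart, in capitals (R64 build, chrXI:24965-25214 and chrXII:963535-963784, both forward strand).
URA1: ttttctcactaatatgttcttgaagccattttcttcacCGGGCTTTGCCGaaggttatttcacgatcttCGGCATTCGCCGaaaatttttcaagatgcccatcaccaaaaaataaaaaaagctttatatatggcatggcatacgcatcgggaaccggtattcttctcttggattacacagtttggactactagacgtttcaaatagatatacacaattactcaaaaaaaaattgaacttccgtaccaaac
URA4: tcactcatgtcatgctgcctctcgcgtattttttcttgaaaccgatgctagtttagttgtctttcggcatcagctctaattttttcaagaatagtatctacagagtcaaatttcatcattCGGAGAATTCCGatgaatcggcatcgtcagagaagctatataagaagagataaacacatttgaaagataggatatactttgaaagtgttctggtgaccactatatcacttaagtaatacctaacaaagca
URA1 holds the pattern at 2 places (bases 212 to 201 and 181 to 170 before the start codon) and URA4 at 1 (bases 130 to 119). The pattern reads the same on either strand. It occurred in 75 of 5908 windows of 250 bases before to 50 after a gene's start (1.27%), among them that of URA3, and in no member besides URA1 and URA4. A match describes letters only. PPR1 mRNA itself went from 35.3, 32.9 and 33.9 CPM to 10.3, 9.42 and 9.72 CPM (log2 change -1.80, SE 0.09, edgeR adjusted p = 1.68e-14).

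The orotate step is shared by isozymes that moved in opposite directions. URA5 (YML106W, chromosome XIII, 56773 to 57453, forward strand) fell from 492, 511 and 485 CPM to 97.9, 95.5 and 86.6 CPM, which is 5.31-fold (log2 change -2.41, SE 0.08, edgeR adjusted p = 4.49e-18). URA10 (YMR271C, chromosome XIII, 806865 to 807548, reverse strand) rose from 7.60, 5.79 and 5.55 CPM to 29.6, 34.8 and 31.8 CPM, which is 5.14-fold (2.36, SE 0.11, edgeR adjusted p = 1.52e-15). Neither gene's treated libraries overlapped its untreated ones. The coding sequences share 479 of 695 aligned bases (68.9%).

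As a share of the TPM of the pair, URA10 took 1.42%, 1.03% and 1.06% in the untreated wild type libraries. After MMS it took 22.1%, 25.2% and 25.6%. The mean thus went from 1.17% ± 0.218 to 24.3% ± 1.94 (SD, n = 3), and URA5 kept the larger part.

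The promoter of URA10 is shown because it is the one member whose window holds the Gcn4 site TGACTCA, in capitals (R64, chrXIII:807549-807798, reverse strand).
URA10: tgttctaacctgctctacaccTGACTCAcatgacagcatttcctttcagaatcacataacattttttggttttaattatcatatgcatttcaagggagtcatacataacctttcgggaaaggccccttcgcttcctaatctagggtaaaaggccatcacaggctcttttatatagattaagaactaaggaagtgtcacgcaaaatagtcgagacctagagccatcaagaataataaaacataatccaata
The site lies at bases 229 to 223 before the start codon. On either strand, TGACTCA occurred in 164 of the 5908 windows (2.78%).

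URA6 (YKL024C, chromosome XI, 392526 to 393140, reverse strand), the uridylate kinase, fell least of the 8: it had 115, 118 and 128 CPM untreated and 43.0, 48.7 and 48.1 CPM after MMS (2.58-fold, log2 change -1.37, SE 0.07, edgeR adjusted p = 2.72e-14). The treated libraries were all below the untreated ones. Its gene model may share 195 bases with the annotated MIN9 gene, added bases of the MIN9 model not counted. Reads of the overlap cannot be told apart.

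The CTP synthases at the end of the pathway also parted. URA7 (YBL039C, chromosome II, 143989 to 145728, reverse strand), the major isozyme, had 476, 469 and 451 CPM in untreated wild type and 8.03, 7.18 and 9.78 CPM after MMS. This 56.1-fold fall (log2 change -5.81, SE 0.13, edgeR adjusted p = 7.67e-21) was the largest of the 10. URA8 (YJR103W, chromosome X, 620754 to 622490, forward strand) went from 115, 114 and 94.5 CPM to 147, 136 and 141 CPM, a rise of 1.32-fold (0.40, SE 0.10, edgeR adjusted p = 0.00143). The treated libraries of URA8 were all above the untreated ones, by a small margin. In TPM the rise was larger, 1.04 on the log2(TPM + 1) scale by limma, a scale on which the median of all genes moved by 0.552.

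URA8 rose from 16.8%, 17% and 15.1% of the pair's TPM in untreated wild type to 94.0%, 94.3% and 92.5% after MMS. The means were 16.3% ± 1.05 and 93.6% ± 0.990 (SD, n = 3). The fall of URA7 carried most of this change, since the TPM of URA8 went from 40.0 to 83.3 while that of URA7 went from 206 to 5.73. The coding sequences share 1255 of 1748 aligned bases (71.8%). If the gene models hold 200 bases on each side of the coding sequence, the model of URA8 reaches 141 bases into the annotated SOD1 gene on the opposite strand. Added bases of the SOD1 model are not counted in this, so the models may share more. SOD1 itself rose from 1022, 1200 and 1054 CPM to 1838, 1873 and 1908 CPM (log2 change 0.78, SE 0.08, edgeR adjusted p = 3.84e-09). Its part in the URA8 values was not tested.

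**Figure D2:**
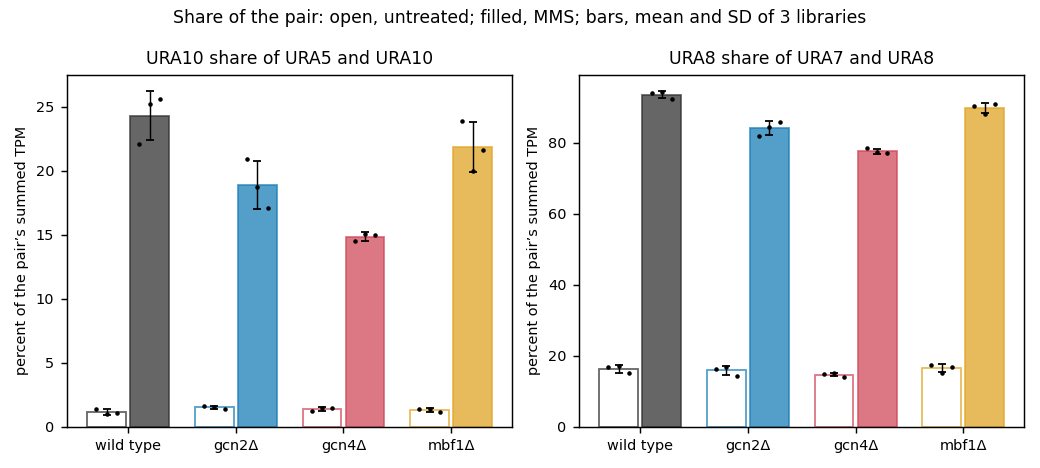
Share of the minor isozyme in the summed TPM of its pair, in percent, for each library of the 4 strains before and after MMS, with bars at the group means and SD error bars (n = 3). URA8 goes from 16.3% to 93.6% in wild type but to 77.7% in gcn4Δ, and URA10 from 1.17% to 24.3% in wild type but to 14.9% in gcn4Δ.

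The promoter of URA7 is shown for the PAC motif, GATGAG, known from promoters of ribosome assembly and RNA polymerase genes (R64, chrII:145729-145978, reverse strand). It holds 2 copies on the opposite strand, read here as CTCATC and overlapping by a base, in capitals.
URA7: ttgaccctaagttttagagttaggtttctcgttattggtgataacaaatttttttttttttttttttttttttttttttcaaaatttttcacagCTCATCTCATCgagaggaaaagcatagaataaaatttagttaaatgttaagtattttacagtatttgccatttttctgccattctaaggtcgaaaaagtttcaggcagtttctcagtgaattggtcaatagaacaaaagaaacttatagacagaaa
The copies lie at bases 156 to 151 and 151 to 146 before the start codon. No other member's window holds the motif, which occurred on either strand in 1168 of the 5908 windows (19.8%) and is therefore common.

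Both salvage genes fell in wild type. FUR1 (YHR128W, chromosome VIII, 362115 to 362765, forward strand), the uracil phosphoribosyltransferase, went from 344, 340 and 330 CPM to 22.1, 22.6 and 24.4 CPM, which is 14.7-fold (log2 change -3.87, SE 0.07, edgeR adjusted p = 3.99e-22). FUR4 (YBR021W, chromosome II, 281443 to 283344, forward strand), the uracil permease, went from 57.7, 50.7 and 46.0 CPM to 13.6, 12.8 and 12.5 CPM, which is 3.95-fold (-1.98, SE 0.14, edgeR adjusted p = 7.12e-12). For both, treated and untreated libraries were well apart. Both steps of the route from uracil to UMP thus had less mRNA relative to other genes.

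The same 8 genes were lower and the same 2 higher after MMS in every mutant, all 10 being called in each. The background was 81.7% of genes called in gcn2Δ (41.4% higher, 40.4% lower), 83.3% in gcn4Δ (40.7% higher, 42.6% lower) and 82.9% in mbf1Δ (42.7% higher, 40.1% lower). The call for URA8 in mbf1Δ (0.33, SE 0.10, edgeR adjusted p = 0.0064) was lost without treated mbf1Δ replicate 3 (0.22, adjusted p = 0.0604). That of FUR4 in gcn4Δ (-0.80, SE 0.13) was lost with limma on TPM (-0.18, adjusted p = 0.13), where the median of all genes moved by 0.539.

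**Figure D3:**
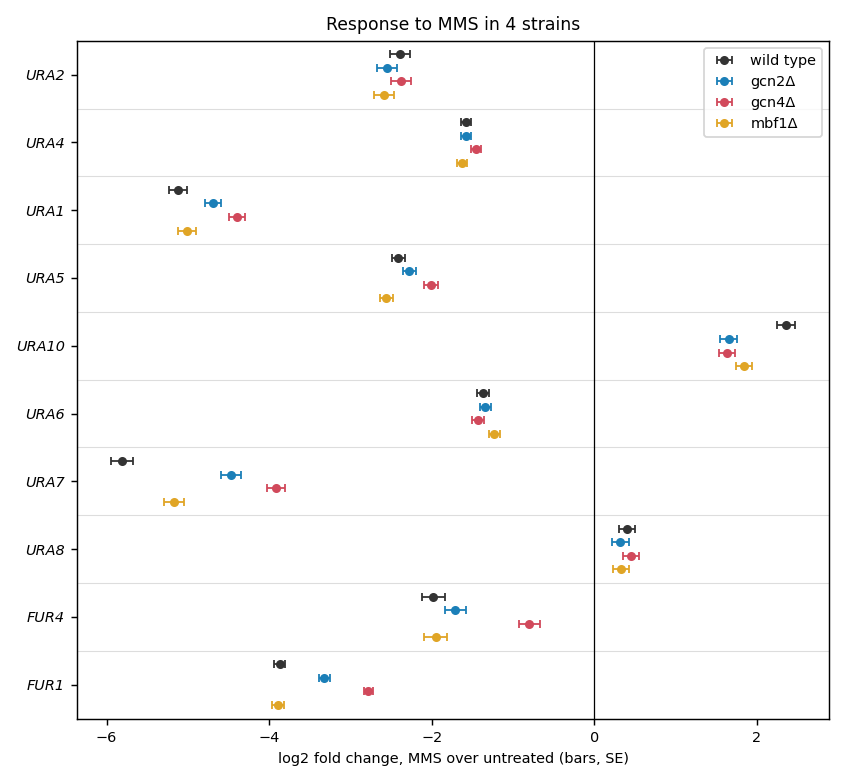
Log2 change on MMS of the 10 genes in each of the 4 strains, with SE bars from edgeR (n = 3 libraries per group). URA7 is at -5.81 in wild type and -3.92 in gcn4Δ, whereas URA2, URA4, URA6 and URA8 lie close together in all strains.

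The size of the response did differ between strains for 6 of the genes. The test is the interaction, the response in a mutant minus that in wild type, and a positive value for a gene that falls means a smaller fall. The 3 interactions share the wild type libraries, so they are not independent of each other. In gcn2Δ, 4 of the 10 genes were called, against a background of 35.9% of all genes (18.6% higher and 17.3% lower), which is about the background share. In gcn4Δ, 6 were called (5 higher, 1 lower) against 35.2% (18.8% and 16.4%). In mbf1Δ, 2 were called, 1 in each direction, against 24% (11.6% higher, 12.4% lower), near the background share.

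URA7 was called in all 3 interactions. After MMS it had 19.6, 18.7 and 18.0 CPM in gcn2Δ and 24.9, 26.1 and 25.9 CPM in gcn4Δ, all above the wild type range of 7.18 to 9.78 CPM. In mbf1Δ it had 9.58, 15.4 and 12.7 CPM, of which replicate 1 lay inside the wild type range. The interactions were 1.34 in gcn2Δ (SE 0.16, edgeR adjusted p = 9.38e-07), 1.89 in gcn4Δ (SE 0.16, adjusted p = 3.48e-09) and 0.64 in mbf1Δ (SE 0.17, adjusted p = 0.00761). The gene still fell by 3.92 on the log2 scale in gcn4Δ, so the fall was reduced, not removed.

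The salvage gene FUR1 had 30.1, 29.4 and 34.0 CPM after MMS in gcn2Δ and 48.4, 47.4 and 47.8 CPM in gcn4Δ, above the wild type values of 22.1 to 24.4 CPM. In mbf1Δ it had 22.1, 23.7 and 24.5 CPM, level with wild type. The interactions were 0.56 in gcn2Δ (SE 0.09, edgeR adjusted p = 4.82e-05) and 1.09 in gcn4Δ (SE 0.09, adjusted p = 2.35e-09). In mbf1Δ the value was -0.02 (SE 0.09, adjusted p = 0.923).

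For the permease gene FUR4, gcn4Δ stood apart. It had 25, 24 and 22.9 CPM after MMS in gcn4Δ, against 13.6, 12.8 and 12.5 CPM in wild type. In gcn2Δ it had 10.5, 11.8 and 14.5 CPM, and in mbf1Δ 10.1, 14.5 and 15.6 CPM, both overlapping wild type. The interaction passed the test in gcn4Δ (1.19, SE 0.19, edgeR adjusted p = 2.71e-05) and missed it in gcn2Δ (0.27, SE 0.19, adjusted p = 0.288) and mbf1Δ (0.03, SE 0.19, adjusted p = 0.934).

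The promoter of FUR4 is shown because, with URA10, it holds the looser Gcn4 pattern TGANTCA, of which TGACTCA is a case (R64, chrII:281193-281442, forward strand, match in capitals).
FUR4: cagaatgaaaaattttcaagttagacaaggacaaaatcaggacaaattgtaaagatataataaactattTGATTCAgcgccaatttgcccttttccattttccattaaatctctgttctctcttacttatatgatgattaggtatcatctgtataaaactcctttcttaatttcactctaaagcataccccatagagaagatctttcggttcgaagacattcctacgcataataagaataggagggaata
The match lies at bases 181 to 175 before the start codon. The looser pattern occurred on either strand in 437 of the 5908 windows (7.4%). FUR4 fell less in gcn4Δ, while URA10 rose less there.

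The de novo gene URA1 kept slightly more mRNA after MMS in the mutants, and its interaction was called in 2 of them. After MMS it had 26.2, 23.5 and 24.8 CPM in gcn2Δ and 26.1, 28.1 and 24 CPM in gcn4Δ, against 17, 16.7 and 17.4 CPM in wild type. The groups did not overlap, but the level remained a small part of the untreated one. The interactions were 0.43 in gcn2Δ (SE 0.13, edgeR adjusted p = 0.014), which limma on TPM did not call (0.39, adjusted p = 0.251), and 0.72 in gcn4Δ (SE 0.13, adjusted p = 0.000175). In mbf1Δ it had 21.2, 21.5 and 19.1 CPM after MMS, also above wild type, but the interaction of 0.11 was not called (SE 0.14, adjusted p = 0.606).

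URA5 differed from wild type only in the gcn4Δ test. It had 129, 125 and 120 CPM after MMS in gcn4Δ, above the 86.6 to 97.9 CPM of wild type, with an interaction of 0.40 (SE 0.11, edgeR adjusted p = 0.0053). The values in gcn2Δ (0.13, SE 0.11) and mbf1Δ (-0.15, SE 0.11) missed the threshold.

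URA10, the induced isozyme, rose less in every mutant. After MMS it had 24.2, 23.0 and 23.0 CPM in gcn2Δ, 22.5, 23.1 and 21.5 CPM in gcn4Δ and 25.4, 24.2 and 27.4 CPM in mbf1Δ. All 9 lay below the lowest wild type value of 29.6 CPM. In TPM the treated libraries overlapped, with means of 47.4 in wild type, 43.9 in gcn2Δ, 46.5 in gcn4Δ and 43.9 in mbf1Δ. The untreated TPM means were 6.26 in wild type, 9.53 in gcn2Δ, 10 in gcn4Δ and 7.62 in mbf1Δ. On that scale the strains thus differed more before MMS than after it, relative to their level. The interactions were -0.71 in gcn2Δ (SE 0.14, edgeR adjusted p = 0.000483), -0.74 in gcn4Δ (SE 0.14, adjusted p = 0.000366) and -0.52 in mbf1Δ (SE 0.15, adjusted p = 0.0146). The call in mbf1Δ was lost without untreated wild type replicate 3 (-0.42, adjusted p = 0.0642) and with limma on TPM (-0.37, adjusted p = 0.19). In gcn4Δ the gene, which holds a Gcn4 site, still rose by 1.63 (SE 0.10, adjusted p = 3.04e-13).

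**Figure D4:**
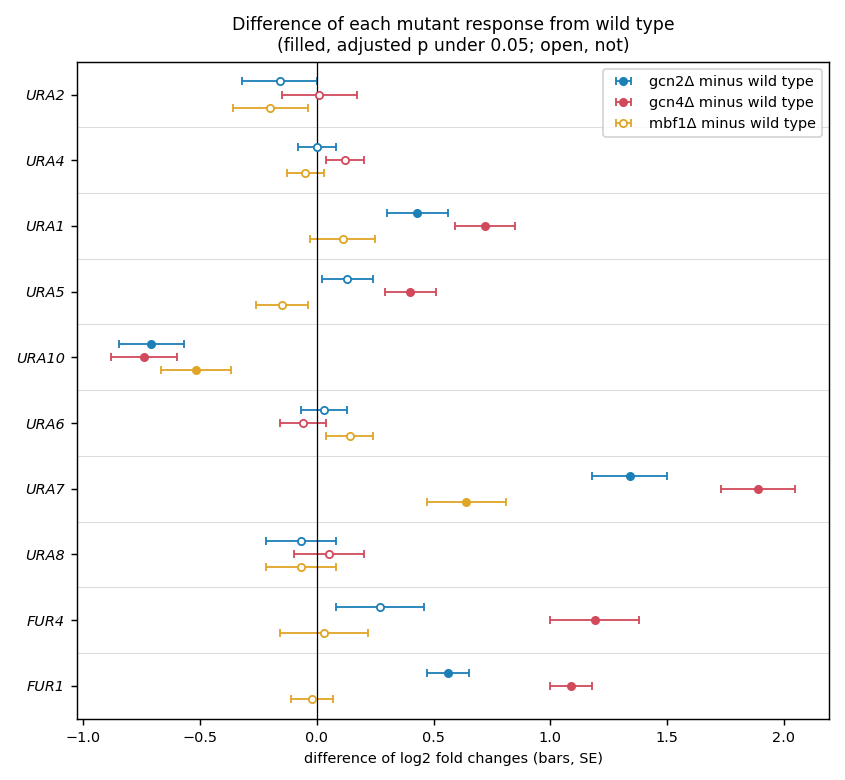
Response to MMS in each mutant minus the response in wild type, on the log2 scale, for the 10 genes, with SE bars from edgeR; filled points passed the adjusted threshold. URA7 is at 1.34, 1.89 and 0.64 in gcn2Δ, gcn4Δ and mbf1Δ, URA10 lies below 0 in all 3, and URA2, URA4, URA6 and URA8 have no filled point.

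URA2, URA4, URA6 and URA8 passed no interaction test. Their interactions ranged from -0.20 (URA2 in mbf1Δ, SE 0.16) to 0.14 (URA6 in mbf1Δ, SE 0.10). These errors do not show that the responses were equal. After MMS, URA2 had 158 to 213 CPM in gcn2Δ, 174 to 198 CPM in gcn4Δ and 166 to 228 CPM in mbf1Δ, all 9 libraries below the lowest wild type value of 229 CPM. Its untreated libraries had 958 to 1156 CPM in gcn2Δ, 935 to 968 CPM in gcn4Δ and 1257 to 1338 CPM in wild type. The untreated difference was not called in gcn2Δ (-0.30, SE 0.11, edgeR adjusted p = 0.133), where the TPM means were 160 against 157 in wild type. URA4 had 66 to 72.6 CPM in gcn2Δ, 63.1 to 65.8 CPM in gcn4Δ and 66.7 to 73.9 CPM in mbf1Δ after MMS, against 66.5 to 71.2 CPM in wild type. For URA4 the 3 gcn4Δ libraries and gcn2Δ replicate 3 lay below the wild type range. URA6 had 50.3 to 56.7 CPM in gcn2Δ and 52.4 to 53.5 CPM in gcn4Δ, above the 43 to 48.7 CPM of wild type, and 48.4 to 56.1 CPM in mbf1Δ, which overlapped it. URA8 had 106 to 130 CPM in gcn2Δ and 109 to 113 CPM in gcn4Δ, below the 136 to 147 CPM of wild type, and 105 to 150 CPM in mbf1Δ. In TPM these treated means lay close together, at 83.3 in wild type, 86 in gcn2Δ, 82.8 in gcn4Δ and 85.4 in mbf1Δ, and treated strains were not tested against each other directly. In mbf1Δ the URA8 libraries thus lay on both sides of the wild type range, and replicate 1 (105 CPM) was the low one.

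The isozyme shares followed the same order of strains. URA8 took 84.2% ± 1.96 of the CTP synthase TPM after MMS in gcn2Δ, 77.7% ± 0.741 in gcn4Δ and 89.8% ± 1.37 in mbf1Δ (SD, n = 3), against 93.6% ± 0.990 in wild type. The 9 mutant libraries, from 77.2% to 90.9%, all lay below the lowest wild type library at 92.5%. Treated URA8 means lay close together in TPM, while those of URA7 were 5.73 in wild type, 16.2 in gcn2Δ, 23.8 in gcn4Δ and 9.65 in mbf1Δ. The lower URA8 shares thus went with more URA7. URA10 took 18.9% ± 1.92 of the orotate step in gcn2Δ, 14.9% ± 0.344 in gcn4Δ and 21.8% ± 1.93 in mbf1Δ, against 24.3% ± 1.94 in wild type. Here gcn2Δ and gcn4Δ lay below all wild type libraries, while mbf1Δ (20% to 23.9%) overlapped them. In gcn4Δ the treated URA10 mean was 46.5 TPM against 47.4 in wild type, while the URA5 mean was 266 against 148. In gcn2Δ these means were 43.9 for URA10 and 188 for URA5.

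Responses were also compared between mutants. In mbf1Δ minus gcn2Δ, 2 of 10 genes were called (both lower; background 6.75%, lower 4.05%): URA7 at -0.70 (SE 0.16, edgeR adjusted p = 0.00758) and FUR1 at -0.57 (SE 0.09, adjusted p = 0.000362). With limma on TPM both missed the threshold at -0.57 and -0.48 (adjusted p = 0.0561 each). A negative value here is a larger fall in mbf1Δ. In mbf1Δ minus gcn4Δ, 5 were called (all lower; background 43.9%, lower 22.9%): URA7 at -1.25 (SE 0.15), FUR4 at -1.16 (SE 0.18), FUR1 at -1.11 (SE 0.09), URA1 at -0.62 (SE 0.13) and URA5 at -0.56 (SE 0.11). URA1 was not called there by limma on TPM (-0.52, adjusted p = 0.106).

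In gcn2Δ minus gcn4Δ, 3 were called (all lower; background 32.8%, lower 18.3%): FUR4 at -0.91 (SE 0.18, edgeR adjusted p = 0.00072), URA7 at -0.54 (SE 0.15, adjusted p = 0.00843) and FUR1 at -0.54 (SE 0.09, adjusted p = 0.000112). The uracil salvage genes thus fell more in gcn2Δ than in gcn4Δ. For URA10 the mutants were not told apart, with differences of 0.20, 0.22 and 0.02 (SE 0.14 each) in these comparisons.

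Before MMS, members were called by edgeR in gcn4Δ only, as given below. In gcn2Δ 0 of the 10 were called by edgeR (background 0.446%), with 4 at an unadjusted p under 0.05. DESeq2 also called 0, and limma on TPM called 5, with the median over all genes moved by 0.329. Without untreated wild type replicate 3, edgeR called 2 members and 1166 genes in all. The 2 were URA6 (0.22, edgeR adjusted p = 0.0453) and FUR4 (-0.44, adjusted p = 0.0328). In mbf1Δ 0 were called by edgeR (background 0.172%), with 0 at an unadjusted p under 0.05, and 0 by DESeq2 or by limma on TPM.

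In untreated gcn4Δ, 4 of 10 were called against a background of 19.3% (9.19% higher, 10.1% lower). URA2 had 968, 952 and 935 CPM against 1338, 1326 and 1257 in wild type (-0.46, SE 0.11, edgeR adjusted p = 0.00813). URA8 had 86.0, 77.7 and 80.2 CPM against 115, 114 and 94.5 (-0.40, SE 0.10, adjusted p = 0.0108). URA4 was lower (-0.20, SE 0.06, adjusted p = 0.016) and URA6 higher (0.24, SE 0.07, adjusted p = 0.0177). These libraries have the low share of counts from the ribosomal RNA locus given above, and 4 members were also called with its 9 genes left out. That fit drops the counts of those genes only, and whether the gcn4Δ libraries differed in other ways was not tested.

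Of these 4 genes, URA2 was called in every leave-one-out fit, and the other 3 calls were each lost on leaving out some library, with values close to those above. Without untreated wild type replicate 1, URA8 had -0.36 (edgeR adjusted p = 0.0608) and URA6 0.21 (0.0957), and without replicate 2 they had -0.36 (0.0598) and 0.23 (0.0751). URA6 had 0.19 without untreated gcn4Δ replicate 3 (adjusted p = 0.107), and URA4 -0.17 without gcn4Δ replicate 2 (0.0825). With limma on TPM, where the median of all genes moved by 0.422, URA2 had -0.00, URA8 -0.01 and URA4 0.27 (adjusted p = 0.0776), none of them called, while URA6 remained called (0.67, adjusted p = 0.00106).

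The wider supply of pyrimidines was described with 22 other genes. In wild type 6 rose, 14 fell and 2 were not called, with a median of -1.29. Among those that rose were CPA1, which serves arginine biosynthesis (log2 change 2.13, SE 0.14), and SDT1, a pyrimidine nucleotidase (1.63, SE 0.13). The uridine kinase gene URK1, which serves salvage from uridine, fell by 2.74 (SE 0.08), and the PRPP synthetase genes PRS1 and PRS3 fell by 2.55 (SE 0.05) and 2.62 (SE 0.06).

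CPA1 had a lower response in all mutants, with interactions of -3.0 in gcn2Δ, -2.40 in gcn4Δ and -2.19 in mbf1Δ (SE 0.20 each). SDT1 had -1.25 in gcn2Δ and -1.13 in mbf1Δ (SE 0.18 each). In gcn4Δ the means of SDT1 were 35.4 CPM untreated and 41 CPM treated, against 25.7 and 80.1 CPM in wild type. Its rise was thus smaller in gcn4Δ too. Of the 22 genes, 4 were higher and 6 lower in gcn2Δ, 10 higher and 5 lower in gcn4Δ, and 1 higher and 6 lower in mbf1Δ.

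Genes with a smaller fall in gcn4Δ included PRS1 (interaction 0.71, SE 0.07), PRS3 (0.49, SE 0.08) and URK1 (0.74, SE 0.10). YNK1, the nucleoside diphosphate kinase gene, rose in wild type (log2 change 0.68) but not in gcn4Δ (means of 173 CPM untreated and 145 CPM treated). Its interaction in gcn4Δ was -0.93 (SE 0.11). The rise was also absent from the YNK1 means in gcn2Δ, at 154 CPM untreated and 151 CPM treated. In mbf1Δ the YNK1 means were 145 and 188 CPM, against 129 and 208 CPM in wild type. In gcn2Δ, URK1 had an interaction of 0.48 (SE 0.11) and the dCMP deaminase gene DCD1 one of 0.53 (SE 0.16). DCD1 means went from 27.2 to 6.77 CPM in wild type and from 27.1 to 9.61 CPM in gcn2Δ. They went from 24.8 to 9.5 CPM in gcn4Δ and from 26.4 to 8.55 CPM in mbf1Δ, so gcn2Δ was not alone. PPR1, the activator of URA1 and URA4, fell less in all mutants. It had 17.7, 15.8 and 18.9 CPM after MMS in gcn2Δ, 15.9, 16.6 and 14.6 in mbf1Δ and 14.4, 12.6 and 13.5 in gcn4Δ, above the 9.42 to 10.3 CPM of wild type. Its interactions were 0.98 in gcn2Δ (SE 0.12), 0.76 in mbf1Δ (SE 0.12) and 0.47 in gcn4Δ (SE 0.12, edgeR adjusted p = 0.00481). URA1, a Ppr1 target, had 0.43, 0.11 and 0.72 in the same strains, and URA4, another, had -0.00, -0.05 and 0.12.

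The 10 genes were set beside lists of purine biosynthesis genes and RNA polymerase I and III genes, which supply or use nucleotides. In wild type, 13 of 15 purine genes fell and 1 rose (median -2.50), and 18 of 19 polymerase genes fell and none rose (median -2.90), so falls with a median like that of the pyrimidine genes (-2.19) were seen in both lists. In the gcn4Δ interaction the median was 0.26 for the pyrimidine genes, 0.14 for the purine genes (6 higher, 1 lower) and 0.68 for the polymerase genes (15 higher, 0 lower). In gcn2Δ these medians were 0.08, -0.41 (2 higher, 8 lower) and 0.56 (14 higher, 1 lower). In mbf1Δ they were -0.03, -0.49 (0 higher, 9 lower) and 0.34 (7 higher, 0 lower). The medians of all genes were 0.03 in gcn2Δ, -0.01 in gcn4Δ and 0.02 in mbf1Δ.

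**Figure D5:**
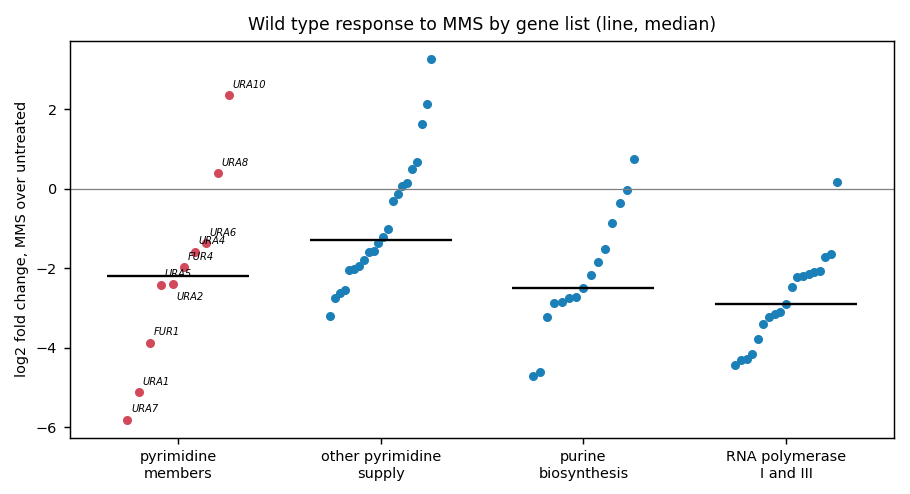
Log2 change of each gene of the pyrimidine, wider pyrimidine supply, purine and RNA polymerase I and III lists in the wild type MMS response, a point per gene with a line at the list median. The medians are -2.19, -1.29, -2.50 and -2.90, and URA7, URA1 and FUR1 lie lowest among the pyrimidine genes.

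The genes whose levels ran most like each member over the 24 libraries were found by Pearson's r of log2 CPM, as a description. The libraries share the large MMS change, so r is high for many genes. URA7 ran closest to NMD3 and SDA1 (r = 0.999 each), URA1 to AAH1 (0.999) and DYS1 (0.998), and FUR1 to MKC7 and GUA1 (0.999 each). URA5 ran closest to PHO3 (0.999) and TIF2 (0.998), URA2 to FAS1 and FAS2 (0.997 each), URA4 to TPA1 and MKT1 (0.994 each), and URA6 to SUI1 (0.997) and RPO26 (0.996). TIF2 has a near-identical copy, TIF1, and reads may be split between them. URA10 ran closest to RRT8 (0.995) and UGA1 (0.994), and FUR4 to ASP1 and YGR054W (0.989 each). URA8 had no gene as close, with 0.946 for ASN2 and 0.941 for SSD1.

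In the authors' deposited tables of the interactions, made with DESeq2, URA7 had log2 values of 1.28 in gcn2Δ, 0.48 in mbf1Δ and 1.85 in gcn4Δ. The authors' deposited tables gave URA10 -0.64, -0.40 and -0.63 in that order, and FUR1 0.53, -0.05 and 1.08. For FUR4 the authors' deposited tables gave 0.22, 0.03 and 1.15. These differ from the edgeR values above by less than 0.2 for each gene named here and have the same signs.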

How the data were processed

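Poly-A RNA of 24 libraries was sequenced as paired reads of 150 bases, per the labels. The authors quantified them with Salmon 1.10.1 against R64, with FastQC 0.11.9 and fastp also named in the submitters' processing notes. The values used are the deposited estimated counts per gene, rounded here to whole numbers, and the deposited TPM. The authors also deposited a table per deletion, made with DESeq2 1.38.3 per the submitters' processing notes. Per the file headers, its columns are the mean of normalized counts (treated as a score), the log2 fold change, the SE of that change and p-values. For 5907 of 5912 genes the model was 400 bases longer than the coding sequence, and no strand setting is given in the sources used here, so reads of overlapping genes cannot be told apart.

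Counts were fitted in R 4.3.3 with edgeR 4.0.16 (filterByExpr, minimum count 10, TMM, a coefficient for each of the 8 groups), with 5824 genes, 16 residual degrees of freedom and a biological coefficient of variation of 8.49%. The 13 contrasts had two-sided quasi-likelihood tests, and p was adjusted by Benjamini-Hochberg over all genes. The fit was tested on simulated data. Copies were searched with blastn 2.17.0, and the identities of the isozyme pairs come from a global alignment of their coding sequences. No member has another place in the genome with at least 90% identity. Alternatives were DESeq2 1.42.0, no filter, limma 3.58.1 on log2(TPM + 1), a replicate block, leaving out each library, and, chosen after seeing the data, leaving out the 9 genes of the rRNA locus and isozyme shares from counts per model length.

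The members and lists were chosen with earlier results of these data known. Named genes are all 10 members, URA3, GCN2, GCN4, MBF1, PPR1 and CPA1, the 3 genes of the wider list with the smallest adjusted p per direction in the wild type response and each interaction, and the 2 genes most correlated with each member. Values of a gene picked by this rule are not reported here. SOD1 was added because its model may overlap that of URA8, and TIF1 as a copy of TIF2. Replicates are labelled as biological, and p-values weigh a difference against the spread between replicates, estimated from all 8 groups together. No pair of replicates agreed within sampling noise. Depth limits are those of counting error.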

Additional observations from a re-analysis of the deposited data

Results flagged for a closer look

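Each result here was flagged because the response to MMS differed between strains by an interaction test (edgeR, adjusted p under 0.05, 3 libraries per group). All values are differences of log2 changes.

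For the CTP synthase gene URA7 the response differed from wild type by 1.34 in gcn2Δ, 1.89 in gcn4Δ and 0.64 in mbf1Δ. Between mutants it differed by -0.70 (mbf1Δ minus gcn2Δ), -1.25 (mbf1Δ minus gcn4Δ) and -0.54 (gcn2Δ minus gcn4Δ).

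For the salvage gene FUR1 the difference from wild type was 0.56 in gcn2Δ and 1.09 in gcn4Δ. Between mutants it was -0.57 (mbf1Δ minus gcn2Δ), -1.11 (mbf1Δ minus gcn4Δ) and -0.54 (gcn2Δ minus gcn4Δ).

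For the permease gene FUR4 it was 1.19 in gcn4Δ, -1.16 for mbf1Δ minus gcn4Δ and -0.91 for gcn2Δ minus gcn4Δ.

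URA1 differed by 0.43 in gcn2Δ, 0.72 in gcn4Δ and -0.62 for mbf1Δ minus gcn4Δ. URA5 differed by 0.40 in gcn4Δ and -0.56 for mbf1Δ minus gcn4Δ. The induced gene URA10 differed by -0.71 in gcn2Δ, -0.74 in gcn4Δ and -0.52 in mbf1Δ.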

How the results depend on the processing

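Over 13 contrasts, 66 of 130 member results were called. All 66 kept call and direction under DESeq2, with no filter, with the replicate block and without the rRNA locus genes, while 61 kept the call without each library in turn and 57 with limma on TPM. Of the 64 others, 3 became called under DESeq2, 2 without the rRNA locus genes, 7 in some leave-one-out fit and 9 with limma on TPM. No direction is read from a value that missed the threshold in both fits.

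With the replicate block, members called stayed at 4, 6 and 2 in the interactions of gcn2Δ, gcn4Δ and mbf1Δ, and all genes called were 2018, 1972 and 1303 against 2093, 2049 and 1397. The numbers did not pair the libraries: correlations of same-numbered deviations ran from -0.688 to 0.688 (median -0.0114), and 4 of 24 libraries correlated best with their own number.

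With limma on TPM, genes called fell to 1298 (gcn2Δ), 1320 (gcn4Δ) and 793 (mbf1Δ, with 1 member) in the interactions, and to 130 (mbf1Δ minus gcn2Δ, from 393, with 0 members), 1314 (mbf1Δ minus gcn4Δ, from 2555) and 957 (gcn2Δ minus gcn4Δ, from 1909). They rose to 2865 in untreated gcn2Δ (from 26, with 5 members) and 4291 in untreated gcn4Δ (from 1124), where the median of all genes moved by 0.329 and 0.422. There URA5 in gcn2Δ turned to 0.21, and URA4 and FUR1 in gcn4Δ turned to 0.27 and 0.42, none of them above the shift of all genes. DESeq2 called 255 genes in untreated gcn2Δ and 18 in untreated mbf1Δ (from 10). Beyond these shifts the cause was not tested.

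Without each library in turn, members called ranged from 1 to 2 in the mbf1Δ interaction, from 0 to 2 in untreated gcn2Δ and from 2 to 5 in untreated gcn4Δ, and from 2 to 3 for mbf1Δ minus gcn2Δ. Genes called ranged from 7 to 1166 in untreated gcn2Δ, 521 to 1919 in untreated gcn4Δ, 6 to 9 in untreated mbf1Δ and 224 to 481 for mbf1Δ minus gcn2Δ. Untreated wild type replicate 3 gave 1166 and 1919 when left out.

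Isozyme shares from counts per model length were slightly higher (wild type URA8 18.8% and 94.5%). URA10, at 5.55 to 7.85 CPM in untreated cells, is the member with the lowest counts.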
